A study of Mus musculus with 12 samples.

Results

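The genes described here are 33 genes of the cell cycle and of DNA replication, chosen by name. They comprise cyclins and their kinases, the proteins that license and copy DNA, enzymes that supply nucleotides, and regulators of G2 and mitosis. Of them, 32 had a probeset that the array annotation gives to that gene alone, among 18193 such genes in all, and a gene is represented here by its brightest such probeset. Ccnb1 had none in the annotation used here and was not analysed here. Their RNA was measured in total liver of 12 mice, 1 animal per Affymetrix array, in 4 groups of 3 animals. Wild-type animals (Atf6a genotype +/+) and Atf6a-/- animals each received either tunicamycin (TM) at 2 mg/kg in 150 mM dextrose or the dextrose alone as vehicle, injected into the peritoneum, and all were killed 8 h later. All 4 groups were of variable age and gender by the labels, and the genotype is that of the whole animal. Values are log2 RMA intensities, and differences are differences of group means on that scale. In bulk liver, fewer cells of a type and less RNA per cell cannot be told apart.

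As background, a cell enters the cycle when D-type cyclins with Cdk4 or Cdk6, and then E-type cyclins with Cdk2, inactivate the retinoblastoma family of repressors and free E2F transcription factors. E2F targets include the proteins that load the MCM helicase on replication origins and the enzymes that make deoxynucleotides. Genes needed in G2 and mitosis are switched on later, by the DREAM complex giving way to B-Myb and Foxm1 at CHR and CCAAT elements near their start sites. Hepatocytes of the adult liver are almost all quiescent, and they re-enter the cycle after tissue loss. TM blocks N-linked glycosylation and so loads the endoplasmic reticulum with misfolded protein, and ATF6α is a sensor and transcription factor of the response to that load.

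Atf6, the targeted gene, was read first in every array. It stood at 8.74, 9.47 and 8.90 in wild-type vehicle animals 1 to 3 and at 10.75, 11.16 and 11.01 in wild-type TM animals. The Atf6a-/- animals stood at 7.03, 7.15 and 7.79 with vehicle and at 10.19, 9.76 and 10.50 with TM. The genotypes did not overlap within either treatment, although neither difference was called by limma (adjusted p = 0.184 with vehicle and adjusted p = 0.0905 under TM). Where this probeset lies relative to the deleted part was not analysed here. Every group held 1 array with Y-linked signal (Eif2s3y from 8.21 to 8.98, against 3.04 to 3.44 elsewhere), namely vehicle animal 2 and TM animal 1 of the wild type and vehicle animal 3 and TM animal 2 of the Atf6a-/- genotype. All 7 measured hepatocyte markers lay above the array median, and none of them fell in any contrast.

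A gene was called higher or lower in a contrast at an adjusted p under 0.05 from limma, adjusted by Benjamini-Hochberg over all 45037 probesets, and over 1.5-fold. With TM in wild-type animals 4 of the 32 genes were higher (12.5%, against 8.92% of all genes) and 3 were lower (9.38%, against 6.9%). The higher ones were Ccne1, Ccne2, Mcm7 and Rrm2, and the lower ones Mcm5, Ccnb2 and Cdk1. In Atf6a-/- animals 5 were higher (15.6%, against 13.1%), namely Ccne2, Cdc25a, Cdt1, Mcm7 and Rrm2, and 3 were lower (9.38%, against 8.21%), namely Ccnd2, Ccnd3 and Cdk1. These shares lie near those of all genes, so the list as a whole was not set apart by its number of calls with TM. Between the genotypes under TM, Cdt1 and Mcm7 were higher in Atf6a-/- animals (6.25% of the list, against 2.89% of all genes) and Ccnd3, Ccne2 and Top2a were lower (9.38%, against 1.53%). With vehicle, 0 genes of the list and 0 of all genes were called between the genotypes by limma. Of the 45037 probesets, 1618 had an unadjusted p under 0.05 there, a share smaller than 0.05. The response to TM itself, taken as the difference between the genotypes in TM minus vehicle and called the interaction, was higher for 1 gene (Mcm7, 3.12% of the list against 1.06%) and lower for 1 gene (Ccne2, 3.12% against 0.748%).

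**Figure D1:**
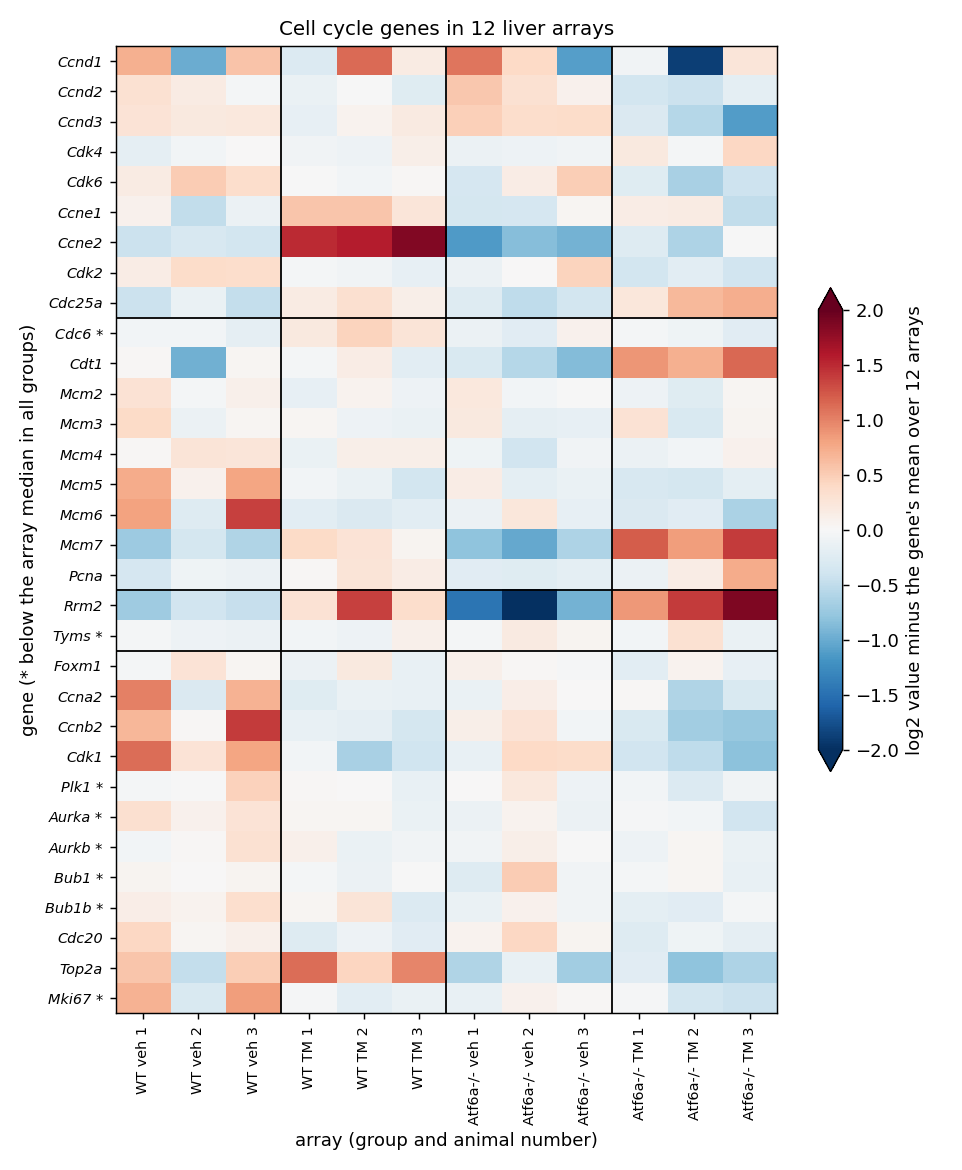
Log2 value of each of the 32 genes (rows, in order of role) in each of the 12 arrays (columns), minus the mean of that gene over the 12 arrays; red is above and blue below that mean. Mcm7 and Rrm2 are red and Cdk1 is blue in every TM array, and Ccne2 is reddest in the 3 wild-type TM arrays.

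The median difference over the 32 genes was -0.15 with TM in wild-type and -0.11 in Atf6a-/- animals, beside -0.06 and -0.10 over all genes. Between the genotypes it was -0.11 under TM and -0.16 with vehicle, beside -0.02 and 0.00 over all genes. The median of all genes with TM in Atf6a-/- animals ran from -0.17 when arrays were centred on Btf3 and Ppia to -0.03 with cyclic loess normalization, and differences are to be read against that shift. At the outset 8 genes can be set aside. Cdc6, Tyms, Plk1, Aurka, Aurkb, Bub1, Bub1b and Mki67 lay below the median of all probesets in all 4 groups, and none of them was called in any contrast. Ccne2 and Ccnb2 lay below it in 3 groups and Top2a in 2, so how far these probesets fell is bounded by the background of the array.

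E-type cyclins, which with Cdk2 drive the entry into S phase, rose with TM in wild-type animals. Ccne2 stood at 4.30, 4.39 and 4.36 in wild-type vehicle animals 1 to 3 and at 6.21, 6.29 and 6.57 in wild-type TM animals. The Atf6a-/- animals stood at 3.58, 3.87 and 3.77 with vehicle and at 4.46, 4.10 and 4.71 with TM. The vehicle and TM arrays were fully separated in each genotype, and the Atf6a-/- TM arrays spanned the level of the wild-type vehicle arrays. With TM Ccne2 rose by 2.01 (standard error 0.15, adjusted p = 1.9e-06, limma) in wild-type animals, or 4.03-fold, and by 0.69 (adjusted p = 0.00388) in Atf6a-/- animals, or 1.61-fold. Under TM it was lower in Atf6a-/- than in wild-type animals by -1.93 (standard error 0.15, adjusted p = 1.5e-05), and the interaction was -1.32 (standard error 0.21, adjusted p = 0.00873). With vehicle the difference was -0.61 and was not called (adjusted p = 1.00). The rise in Atf6a-/- animals fell to 0.54, under the 1.5-fold limit, without Atf6a-/- TM animal 3.

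Ccne1, the paralog of Ccne2, moved less. It stood at 6.30, 5.72 and 6.10 in wild-type vehicle animals and at 6.76, 6.77 and 6.46 in wild-type TM animals, and at 5.86, 5.88 and 6.26 (vehicle) and 6.37, 6.38 and 5.72 (TM) in Atf6a-/- animals. The TM arrays lay above the vehicle arrays in the wild-type animals, while the Atf6a-/- groups overlapped. Wild-type animals gained 0.62 with TM (standard error 0.20, adjusted p = 0.0460), beside a difference of 0.15 (adjusted p = 0.594) for the Atf6a-/- genotype, and the interaction was -0.47 (adjusted p = 0.598). The call in wild-type animals lies at the threshold. It was lost when any of wild-type vehicle animals 2 and 3, wild-type TM animals 1 and 2 or Atf6a-/- vehicle animals 1 and 2 was left out, with differences of 0.46 to 0.65 and adjusted p from 0.0581 to 0.149.

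D-type cyclins, which pair with Cdk4 and Cdk6 and link growth signals to the cycle, included 2 genes that fell with TM in Atf6a-/- animals and none that was called in wild-type animals. Ccnd3 stood at 8.94, 8.86 and 8.88 in wild-type vehicle animals, 8.50, 8.73 and 8.84 in wild-type TM animals, 9.14, 9.02 and 9.03 in Atf6a-/- vehicle animals and 8.38, 8.10 and 7.54 in Atf6a-/- TM animals. The Atf6a-/- TM arrays lay below every other array. Ccnd3 fell by 1.06 on the log2 scale with TM in Atf6a-/- animals (standard error 0.17, adjusted p = 5.0e-04) and differed by -0.20 (adjusted p = 0.496) in wild-type animals. Under TM it was lower in Atf6a-/- animals by -0.69 (standard error 0.17, adjusted p = 0.0410), while the interaction of -0.86 was not called (adjusted p = 0.132), so a difference in response was not shown. This genotype call was lost without any of 9 of the 12 arrays in turn, the exceptions being wild-type vehicle animal 2, wild-type TM animal 1 and Atf6a-/- TM animal 1 (-0.73 to -0.45, adjusted p from 0.0557 to 0.152). The dimmer Ccnd3 probesets gave -0.39 and -0.12 with TM in Atf6a-/- animals.

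Ccnd2 stood at 7.99, 7.85 and 7.64 in wild-type vehicle animals and at 7.54, 7.68 and 7.44 in wild-type TM animals, which overlapped. The Atf6a-/- animals stood at 8.22, 7.98 and 7.77 with vehicle and at 7.31, 7.24 and 7.48 with TM, which did not. The fall was -0.64 in Atf6a-/- animals (standard error 0.13, adjusted p = 0.00267), against -0.28 (adjusted p = 0.189) in the wild type and an interaction of -0.37 (adjusted p = 0.499). Without Atf6a-/- vehicle animal 1 the fall was -0.53, under the 1.5-fold limit. Ccnd1, the D-type cyclin best known from regenerating liver, was not called in any contrast. Its values were 10.21, 8.50 and 10.07 in wild-type vehicle animals, 9.23, 10.64 and 9.66 in wild-type TM animals, 10.57, 9.89 and 8.40 in Atf6a-/- vehicle animals and 9.43, 7.61 and 9.75 in Atf6a-/- TM animals. In each group the lowest Ccnd1 array was the array with Y-linked signal, a pattern noticed in these values and given as a description. The spread within groups was 0.72 to 1.15 (SD, n = 3), and the difference with TM was 0.25 (95% confidence interval -1.19 to 1.68) in wild-type and -0.69 (-2.13 to 0.75) in Atf6a-/- animals.

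Cdc25a, the phosphatase that removes inhibitory phosphate from cyclin-dependent kinases, was higher with TM. Its values were 6.40, 6.70 and 6.35 in wild-type vehicle animals, 7.0, 7.15 and 6.95 in wild-type TM animals, 6.57, 6.32 and 6.47 in Atf6a-/- vehicle animals and 7.07, 7.48 and 7.56 in Atf6a-/- TM animals. TM and vehicle arrays did not overlap in either genotype. It rose by 0.92 in Atf6a-/- animals (standard error 0.14, adjusted p = 3.4e-04), and in wild-type animals the difference of 0.55 had an adjusted p of 0.0146 but stayed under 1.5-fold (1.46-fold). The kinases Cdk4, Cdk6 and Cdk2 were called in no contrast. With TM their differences lay between -0.38 (Cdk2) and 0.06 (Cdk4) in wild-type animals and between -0.54 (Cdk6) and 0.28 (Cdk4) in Atf6a-/- animals.

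**Figure D2:**
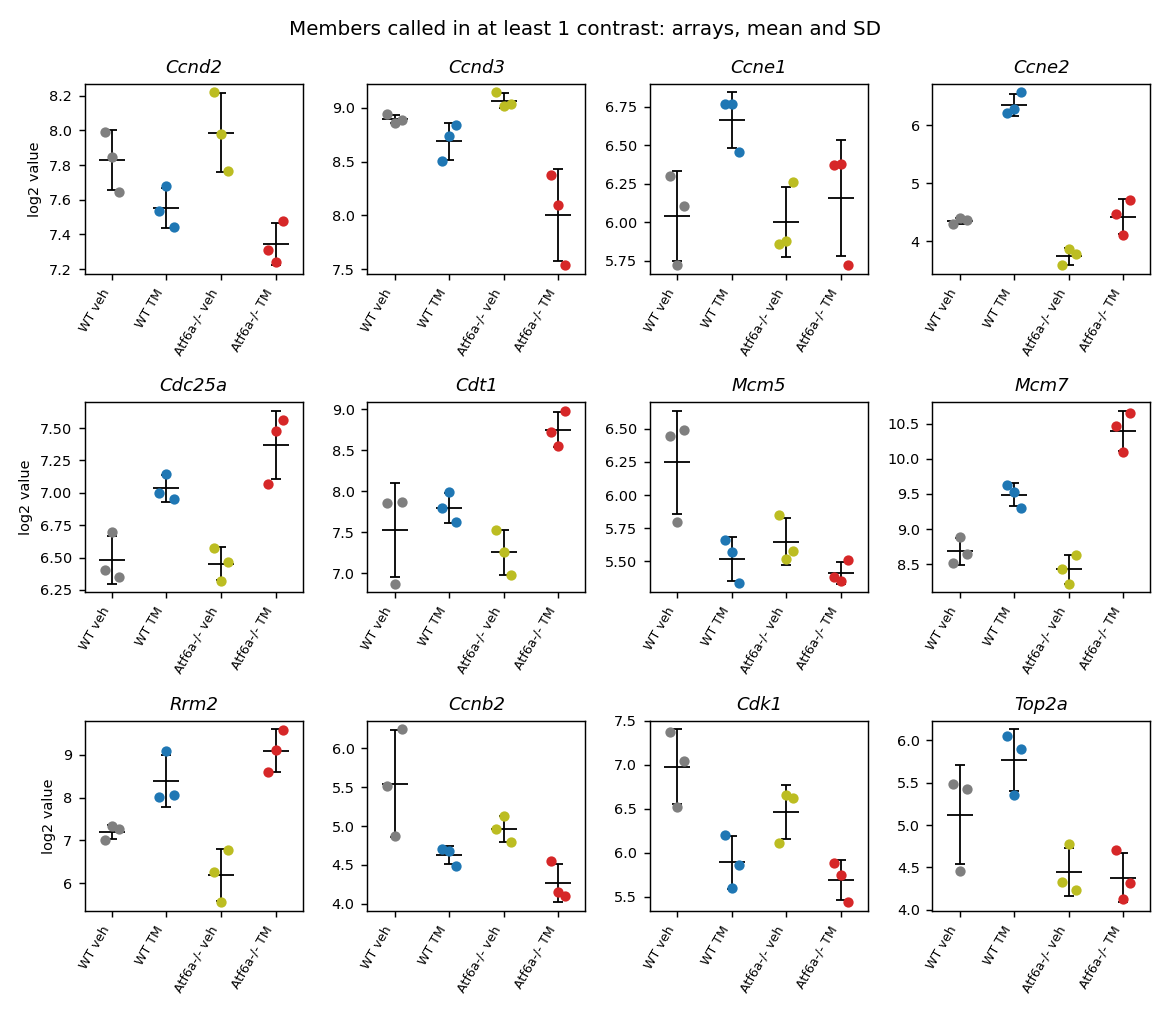
Log2 value of the 12 genes called in at least 1 contrast, in every array of the 4 groups (points), with the group mean and SD (black bars, n = 3). Each panel has its own y axis that does not start at 0. Ccne2 is highest in wild-type TM arrays (6.21 to 6.57), Mcm7 in Atf6a-/- TM arrays (10.09 to 10.65).

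Origins are licensed in G1, when Cdc6 and Cdt1 load the helicase formed by Mcm2 to Mcm7, and Pcna is the sliding clamp of the polymerases. With TM Mcm7 rose in both genotypes, Cdt1 rose in Atf6a-/- animals and Mcm5 fell in wild-type animals. Mcm7 stood at 8.52, 8.89 and 8.64 in wild-type vehicle animals, 9.63, 9.52 and 9.31 in wild-type TM animals, 8.44, 8.22 and 8.63 in Atf6a-/- vehicle animals and 10.46, 10.09 and 10.65 in Atf6a-/- TM animals. The TM arrays lay above all vehicle arrays, and those of Atf6a-/- animals above those of wild-type animals. In wild-type animals Mcm7 rose with TM by 0.80 (standard error 0.16, adjusted p = 0.00336), and the rise of 1.97 (adjusted p = 2.9e-06) in Atf6a-/- animals was 3.91-fold. Under TM the genotype difference was 0.91 (adjusted p = 0.00589) and the interaction was 1.17 (standard error 0.22, adjusted p = 0.0259). All 4 probesets of Mcm7 gave the same direction, with 0.46 to 0.80 in wild-type and 1.40 to 1.97 in Atf6a-/- animals, and all are of the kinds that may also read related transcripts. The interaction did not pass when any of wild-type vehicle animal 3, wild-type TM animals 2 and 3, Atf6a-/- vehicle animals 1 and 2 or Atf6a-/- TM animals 1 and 3 was left out (1.05 to 1.19, adjusted p from 0.0545 to 0.0779).

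Cdt1 rose in Atf6a-/- animals. Its values were 7.85, 6.87 and 7.87 in wild-type vehicle animals, 7.80, 7.98 and 7.62 in wild-type TM animals, 7.53, 7.26 and 6.97 in Atf6a-/- vehicle animals and 8.72, 8.55 and 8.98 in Atf6a-/- TM animals. The Atf6a-/- TM arrays stood above the other 9, and the wild-type groups overlapped. The rise was 1.498 (standard error 0.24, adjusted p = 5.1e-04), or 2.82-fold, beside 0.27 (adjusted p = 0.528) in wild-type animals. Under TM the genotypes differed by 0.95 (standard error 0.24, adjusted p = 0.0454), and the interaction of 1.23 was not called (adjusted p = 0.128). A further probeset gave 1.58 with TM in Atf6a-/- animals and a dim one -0.06. Without wild-type vehicle animal 2, which held the low value, the interaction passed (1.56, adjusted p = 0.00685). That low value enlarges the wild-type difference with TM, and the array was picked out by it. A difference in response was therefore not shown. The call between the genotypes was lost without any of the 6 TM arrays or Atf6a-/- vehicle animals 1 and 2 in turn (0.84 to 1.05, adjusted p from 0.0541 to 0.160).

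Mcm5 fell in wild-type animals. It stood at 6.45, 5.80 and 6.49 in wild-type vehicle animals, 5.66, 5.57 and 5.33 in wild-type TM animals, 5.85, 5.52 and 5.58 in Atf6a-/- vehicle animals and 5.38, 5.35 and 5.51 in Atf6a-/- TM animals. Wild-type vehicle animals 1 and 3 stood above the other 10 arrays. In the wild type the fall was -0.73 (standard error 0.17, adjusted p = 0.00936), beside -0.24 (adjusted p = 0.330) in Atf6a-/- animals. The dimmer probesets of Mcm5 gave -0.33 and -0.01 in wild-type animals. Mcm6 showed the same arrays high, at 7.47 and 8.04 in wild-type vehicle animals 1 and 3, against 6.40 in animal 2 and 6.04 to 6.89 in the 9 arrays of the other groups. Its difference with TM in wild-type animals was -0.87 and was not called (adjusted p = 0.0653). Cdc6 had adjusted p values of 0.0205 for TM in the wild type (0.40) and 0.0472 between the genotypes under TM (-0.42), both under 1.5-fold and from values below the array median. Mcm2, Mcm3 and Mcm4 were called in no contrast, nor was Pcna, which differed with TM by 0.32 (adjusted p = 0.253) in the wild type and by 0.47 (adjusted p = 0.0565) in Atf6a-/- animals.

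The stretches before the start sites of Mcm7 and Mcm5, partners in a single helicase, are shown because their brightest probesets were called in opposite directions in wild-type animals. The call of Mcm5 was lost with the mean of its probesets and without probesets that may read several transcripts. The stretches are the 200 bases up to the start site in the RefSeq promoter table for GRCm38.p6, printed along the strand of the gene. Capitals mark matches on either strand to the CHR motif TTTGAA, the CCAAT box CCAAT and an E2F motif TTTNGCGC.
Mcm7, chr5:138171884-138172083, minus strand: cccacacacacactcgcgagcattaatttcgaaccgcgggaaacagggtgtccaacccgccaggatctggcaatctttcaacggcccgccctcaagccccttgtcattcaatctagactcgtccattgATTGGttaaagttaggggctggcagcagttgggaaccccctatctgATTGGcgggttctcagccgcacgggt
Mcm5, chr8:75109309-75109508, plus strand: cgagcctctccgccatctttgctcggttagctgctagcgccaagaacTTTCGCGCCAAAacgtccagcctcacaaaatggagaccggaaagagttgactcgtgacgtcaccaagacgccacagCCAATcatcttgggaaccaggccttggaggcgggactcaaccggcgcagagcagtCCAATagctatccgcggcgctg
Both hold CCAAT matches, 72 and 26 bases before the start site in Mcm7 and 77 and 22 bases before it in Mcm5. Mcm5 also holds overlapping E2F matches on opposite strands, 153 and 149 bases before the start, and the 1 E2F match of Mcm7 lies in the bases after the printed stretch. That table also holds a further start site of Mcm7, whose stretch is not printed. Over the full windows of 300 bases, 5 of the 8 licensing genes with a window (62.5%) held the E2F motif, against 1.57% of 27025 genes. A match describes letters only, and no factor was measured here.

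Of the nucleotide enzymes, Rrm2, the regulated subunit of ribonucleotide reductase, gave the largest rise of the 32 genes in Atf6a-/- animals, and in wild-type animals it came after Ccne2. It stood at 7.01, 7.33 and 7.26 in wild-type vehicle animals and at 8.02, 9.08 and 8.07 in wild-type TM animals. The Atf6a-/- animals stood at 6.26, 5.56 and 6.78 with vehicle and at 8.59, 9.12 and 9.58 with TM. TM and vehicle arrays were separated in each genotype, and with vehicle the Atf6a-/- arrays lay below the wild-type ones. The rise was 1.18 (standard error 0.34, adjusted p = 0.0290), or 2.27-fold, in wild-type animals and 2.90 (adjusted p = 4.9e-05), or 7.45-fold, in Atf6a-/- animals. The interaction of 1.71 was not called (standard error 0.48, adjusted p = 0.134), nor were the genotype differences of -1.004 with vehicle (adjusted p = 1.00) and 0.71 under TM (adjusted p = 0.370). All 3 probesets gave differences above 0, with 0.78 to 1.18 in wild-type and 2.45 to 2.90 in Atf6a-/- animals. The call in wild-type animals was lost without wild-type vehicle animal 1 or 3 or wild-type TM animal 2 (0.84 to 1.22, adjusted p from 0.0640 to 0.125). Tyms, thymidylate synthase, lay below the array median throughout, at 3.43 to 3.87.

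**Figure D3:**
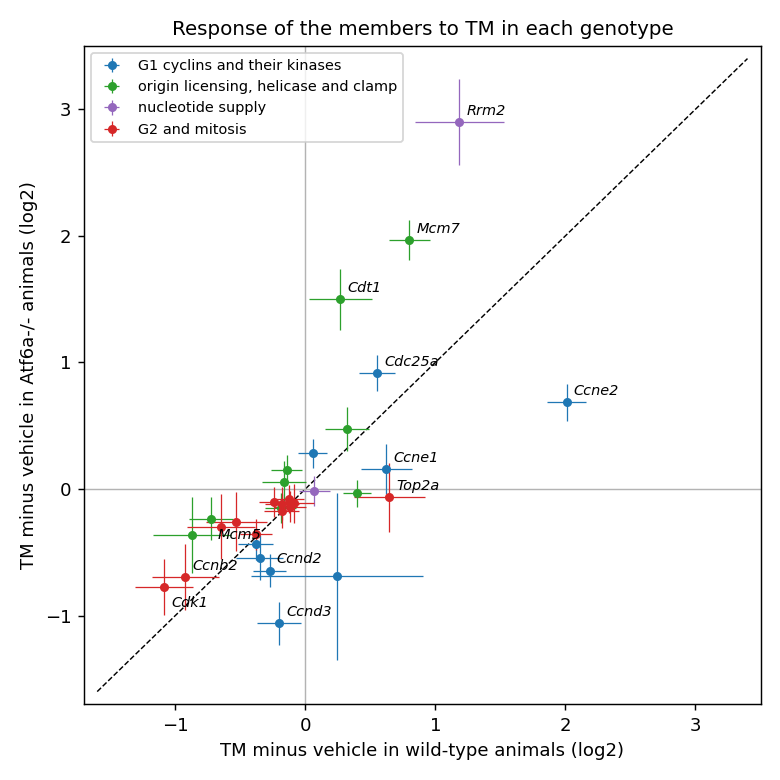
TM minus vehicle on the log2 scale in wild-type (x axis) and Atf6a-/- animals (y axis) for the 32 genes, coloured by role, with standard errors from limma; named genes were called in at least 1 contrast and the dashed line marks equal responses. Ccne2 lies far below the line (2.01 and 0.69), whereas Mcm7, Cdt1 and Rrm2 lie above it.

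Among the 12 measured genes of G2 and mitosis none was called higher with TM. With TM 11 of the 12 differences were below 0 in wild-type animals and 12 of 12 in Atf6a-/- animals, with medians of -0.21 and -0.16, beside -0.06 and -0.10 over all genes. Of the 12, 2 (16.7%) and 1 (8.33%) were called lower, against 6.9% and 8.21% of all genes. The 12 include Plk1, Aurka, Aurkb, Bub1, Bub1b and Mki67, set aside above as below the array median, whose signs carry little. The differences within a genotype also share the same vehicle arrays, so their signs are not independent. Cdk1, the kinase of mitotic entry, stood at 7.37, 6.53 and 7.04 in wild-type vehicle animals, 6.20, 5.61 and 5.86 in wild-type TM animals, 6.11, 6.66 and 6.62 in Atf6a-/- vehicle animals and 5.88, 5.75 and 5.44 in Atf6a-/- TM animals. TM and vehicle arrays did not overlap in either genotype. In the wild type Cdk1 fell by 1.09 (standard error 0.22, adjusted p = 0.00444), in the Atf6a-/- genotype it fell by 0.77 (adjusted p = 0.0220), and the interaction was 0.31 (adjusted p = 0.798). It was the 1 gene of the list that was called lower in both genotypes. The call in Atf6a-/- animals did not pass without Atf6a-/- vehicle animal 2 or 3 or Atf6a-/- TM animal 3 (-0.69 to -0.65, adjusted p from 0.0720 to 0.0887).

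Ccnb2, a B-type cyclin that activates Cdk1, stood at 5.52, 4.87 and 6.25 in wild-type vehicle animals, 4.70, 4.67 and 4.49 in wild-type TM animals, 4.96, 5.13 and 4.79 in Atf6a-/- vehicle animals and 4.55, 4.15 and 4.10 in Atf6a-/- TM animals. Vehicle arrays were above TM arrays in each genotype. In the wild type the fall was -0.92 (standard error 0.26, adjusted p = 0.0263), and the difference of -0.69 in Atf6a-/- animals was not called (adjusted p = 0.0652). The wild-type call was lost without wild-type vehicle animal 1 or 3 or any of the wild-type TM animals (-0.96 to -0.57, adjusted p from 0.0562 to 0.090). Apart from Top2a, whose difference in wild-type animals was above 0, the other members followed in sign without a call. Ccna2 differed by -0.65 (adjusted p = 0.114) and Cdc20, an activator of the anaphase promoting complex, by -0.38 (adjusted p = 0.0520) in wild-type animals, and Foxm1, a transcription factor of mitotic genes, by -0.12 and -0.14 in the 2 genotypes.

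Top2a, the topoisomerase that untangles replicated DNA, differed between the genotypes under TM. It stood at 5.49, 4.45 and 5.43 in wild-type vehicle animals, 6.05, 5.36 and 5.90 in wild-type TM animals, 4.33, 4.77 and 4.24 in Atf6a-/- vehicle animals and 4.70, 4.13 and 4.31 in Atf6a-/- TM animals. Under TM the genotypes did not overlap, and the Atf6a-/- arrays of either treatment lay below the array median. Top2a was lower in Atf6a-/- animals under TM by -1.39 (standard error 0.27, adjusted p = 0.0124). In the wild type the difference with TM was 0.64 (adjusted p = 0.138), and the interaction was -0.71 (adjusted p = 0.547), so neither was called. The genotype call was lost without wild-type TM animal 1 or 3 (-1.32 to -1.25, adjusted p from 0.0515 to 0.0569), and the 2 dimmer probesets gave -0.14 and -0.12.

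Stretches before the start sites of Cdk1, Ccnb2 and Top2a are shown because Cdk1 and Ccnb2 fell with TM in wild-type animals while Top2a, high in the same vehicle arrays, was not called there. Source, direction and capitals are as for Mcm7 and Mcm5.
Cdk1, chr10:69352913-69353112, minus strand: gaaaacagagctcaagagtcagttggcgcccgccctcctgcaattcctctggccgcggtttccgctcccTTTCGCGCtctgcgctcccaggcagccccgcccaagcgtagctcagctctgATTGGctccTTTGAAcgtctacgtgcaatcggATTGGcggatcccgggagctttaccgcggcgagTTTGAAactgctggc
Ccnb2, chr9:70421555-70421754, minus strand: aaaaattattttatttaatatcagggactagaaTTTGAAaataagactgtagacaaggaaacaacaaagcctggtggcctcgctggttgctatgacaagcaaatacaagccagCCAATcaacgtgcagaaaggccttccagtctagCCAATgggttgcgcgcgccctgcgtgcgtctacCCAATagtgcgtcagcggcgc
Top2a, chr11:99024190-99024389, minus strand: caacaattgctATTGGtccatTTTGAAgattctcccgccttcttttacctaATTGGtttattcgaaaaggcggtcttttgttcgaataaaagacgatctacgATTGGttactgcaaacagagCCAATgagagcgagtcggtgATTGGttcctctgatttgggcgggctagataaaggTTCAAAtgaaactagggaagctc
Cdk1 holds CHR matches 71 and 15 bases before its start site and CCAAT matches 80 and 48 bases before it. Ccnb2 holds CCAAT matches 87, 54 and 21 bases before its start and a CHR match 167 bases before it, and Top2a holds 5 CCAAT and 2 CHR matches in the printed stretch. In the full windows of 300 bases all 10 genes of G2 and mitosis with a window held CCAAT on either strand, against 41.1% of 27025 genes, and 8 of 10 held TTTGAA, against 20.2%. No G1 cyclin or kinase gene with a window held TTTGAA (0 of 6). Matches to both motifs thus stood before all 3 of the printed genes.

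**Figure D4:**
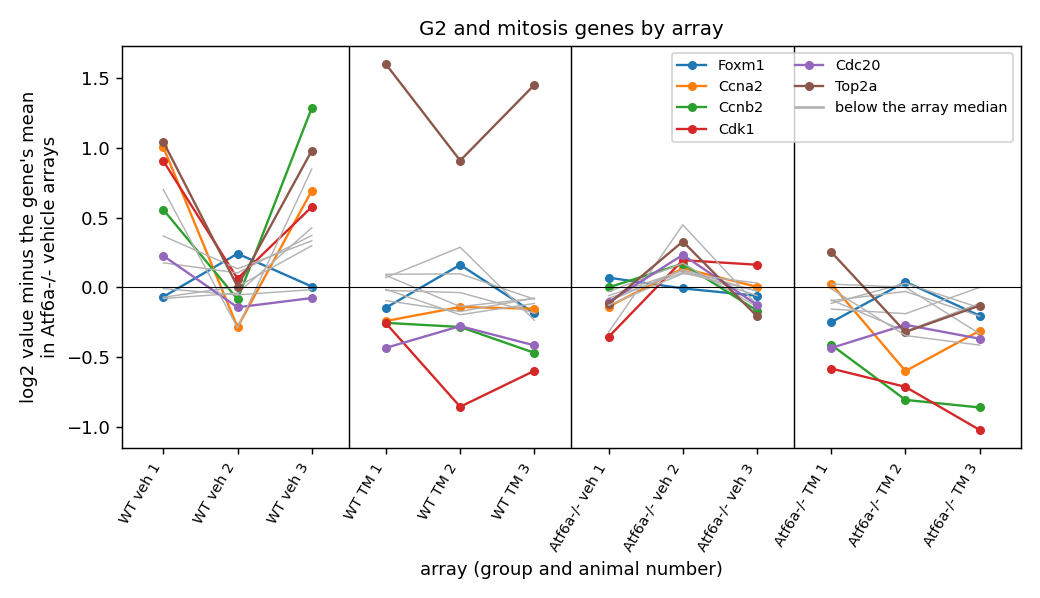
Log2 value of the 12 genes of G2 and mitosis in each array, minus the mean of the gene in the 3 Atf6a-/- vehicle arrays. Lines join the values of a gene within a group and imply no order of the animals, and grey lines are genes below the array median in all groups. Wild-type vehicle animals 1 and 3 stand above animal 2 for Cdk1, Ccnb2, Ccna2 and Top2a, and the wild-type TM arrays are high for Top2a.

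In 9 of the 12 genes of G2 and mitosis, wild-type vehicle animals 1 and 3 both stood above animal 2. The exceptions were Foxm1, at 5.70 and 5.77 in animals 1 and 3 and 6.01 in animal 2, and Plk1 and Aurkb, for which animal 1 lay just below animal 2. Animal 2 was also the 1 wild-type vehicle array with Y-linked signal, so sex and this split cannot be told apart within the group. Mki67, the proliferation marker, was at 5.00 and 5.14 in animals 1 and 3 and at 4.003 in animal 2, against 4.16 to 4.39 in Atf6a-/- vehicle arrays. Ccna2 was at 6.40 and 6.09 against 5.11, with 5.25 to 5.53 in Atf6a-/- vehicle arrays. For Cdk1, Ccnb2 and Mcm5, which fell with TM in wild-type animals, animal 2 alone also lay above all 3 wild-type TM arrays. Measured from animal 2 alone the differences were -0.63 for Cdk1, -0.25 for Ccnb2 and -0.28 for Mcm5. That choice was made after the values were seen and leaves 1 array in the group, so no test is read from it. Without wild-type vehicle animal 2, 6 of the 32 genes were lower with TM in wild-type animals, with Mcm6 (-1.33, adjusted p = 2.6e-04), Ccna2 (-1.03, adjusted p = 9.3e-04) and Mki67 (-0.88, adjusted p = 5.6e-04) beside Cdk1, Ccnb2 and Mcm5. Without that array Mcm5 (-0.82, adjusted p = 0.0407) and Mcm6 (-1.10, adjusted p = 0.0425) were also lower in Atf6a-/- than in wild-type animals with vehicle. Animal 2 was singled out here by its low values, and leaving it out raises the wild-type vehicle means of these genes. Those adjusted p values are therefore a description and no support for a fall. The share of all genes called without animal 2 is not given, so the count of 6 is no result about the list. Mki67 lay below the array median in all 4 groups.

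Of 9 lists of cell type markers, 7 had a higher median in both of these arrays than in animal 2. The exceptions were the erythroid list, at 4.41 and 4.46 in animals 1 and 3 against 4.70, and the hepatocyte list, at 14.33 and 14.31 against 14.34. Lists of B and plasma cells (5.90 and 5.74 against 5.68) and of cholangiocytes (4.99 in each against 4.86) differed little. The median log2 value of 8 stellate cell markers was 9.62 and 9.66 in wild-type vehicle animals 1 and 3 and 8.07 in animal 2. For 8 markers of Kupffer cells and macrophages it was 10.58 and 10.64 against 9.77, and for 7 markers of T and NK cells 5.71 and 5.34 against 4.81. With TM all 8 Kupffer cell and macrophage markers had differences below 0 in each genotype. Of these 8, 0 were called lower in wild-type and 3 in Atf6a-/- animals (Adgre1, Csf1r and Marco), beside 6.9% and 8.21% of all genes. The mean of that list ran from 9.22 to 10.10 in wild-type vehicle, 9.30 to 9.55 in wild-type TM, 9.33 to 10.003 in Atf6a-/- vehicle and 8.82 to 9.33 in Atf6a-/- TM arrays. The mean of the stellate cell list ran from 8.47 to 9.43, 8.29 to 8.64, 8.58 to 8.94 and 8.19 to 8.56 in the same order. In wild-type vehicle and both Atf6a-/- groups, the array with Y-linked signal held the lowest mean of each of these lists. In wild-type TM it did not, and the pattern was noticed in these values. The part of these cells in the values of the mitotic genes was not tested.

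Other genes of the cycle were read from 8 lists with 149 measured genes. In wild-type animals TM left 21 higher and 20 lower (14.1% and 13.4%, against 8.92% and 6.9% of all genes), and 23 were higher and 18 lower in Atf6a-/- animals (15.4% and 12.1%, against 13.1% and 8.21%). Under TM 2 were higher (1.34%, against 2.89%) and 5 lower (3.36%, against 1.53%) in Atf6a-/- than in wild-type animals, and 0 were called with vehicle. Cdkn1a, an inhibitor of cyclin-dependent kinases that arrests cells under stress, was among the largest rises, from 6.62, 6.07 and 6.08 to 9.43, 10.67 and 10.12 in wild-type and from 6.35, 6.04 and 6.22 to 10.78, 10.38 and 9.92 in Atf6a-/- animals. TM and vehicle arrays were far apart in each genotype. Cdkn1a rose by 3.82 (standard error 0.28, adjusted p = 2.2e-06) and by 4.15 (adjusted p = 1.1e-06), and the genotypes under TM differed by 0.28 (95% confidence interval -0.33 to 0.90). Of 7 such inhibitors only Cdkn1a and Cdkn1b were called higher, in each genotype, and only Cdkn2d lower, in Atf6a-/- animals. Of all genes 8.92% were higher and 6.9% lower in the wild type, and 13.1% and 8.21% in Atf6a-/- animals. Cdkn1b rose by 0.67 (adjusted p = 0.0285) and 1.20 (adjusted p = 5.1e-04), and Cdkn2d fell by 0.67 in Atf6a-/- animals (adjusted p = 0.00121). The call of Cdkn1b in wild-type animals was lost without wild-type vehicle animal 2 or 3 or wild-type TM animal 1 or 3 (0.49 to 0.67, adjusted p from 0.0740 to 0.124), and that of Cdkn2d without Atf6a-/- vehicle animal 2 (-0.57). Of 17 E2F and pocket protein genes, TM raised 1 and lowered 1 in the wild type and raised 4 and lowered 1 in Atf6a-/- animals (5.88%, 5.88%, 23.5% and 5.88%, against 8.92%, 6.9%, 13.1% and 8.21% of all genes). In both genotypes Rbl1, a pocket protein gene, rose by 2.27 (adjusted p = 5.1e-04) and 1.82 (adjusted p = 0.00163), and the repressor E2f8 was the 1 lower gene. Lin54, Lin37 and Lin9, subunits of the complex that DREAM shares with B-Myb, were higher with TM in Atf6a-/- animals by 0.87 (adjusted p = 1.9e-04), 0.66 (adjusted p = 2.6e-04) and 0.60 (adjusted p = 0.00905). Lin9 lay below the array median in all 4 groups, with group means from 3.68 to 4.28. E2f8 lost its call in wild-type animals without wild-type vehicle animal 2 or wild-type TM animal 2 or 3 (-0.56 to -0.48), and Lin9 without Atf6a-/- vehicle animal 2 or Atf6a-/- TM animal 3 (0.48 and 0.51).

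Of 34 other genes of origin licensing and the replisome, TM raised 6 and lowered 3 in the wild type and raised 7 and lowered 3 in Atf6a-/- animals (17.6%, 8.82%, 20.6% and 8.82%, to be read against 8.92%, 6.9%, 13.1% and 8.21% of all genes). Subunits of the origin recognition complex were among the higher ones, with Orc2 at 1.27 (adjusted p = 3.3e-05) and 1.63 (adjusted p = 3.3e-06) and Orc5 at 0.90 (adjusted p = 3.0e-04) and 1.67 (adjusted p = 2.1e-06). Rpa2, a subunit of the protein that coats single-stranded DNA, rose by 2.35 (adjusted p = 8.3e-08) and 1.64 (adjusted p = 1.3e-06). Under TM Orc5 was higher in Atf6a-/- animals by 0.65 (adjusted p = 0.0123) and Gins2 lower by -0.74 (adjusted p = 0.0281). Orc5 lost that call without wild-type TM animal 2 or 3 or Atf6a-/- TM animal 1 or 3 (0.58 to 0.62, adjusted p from 0.0505 to 0.0622), and Gins2 without wild-type TM animal 2 or 3 or any Atf6a-/- TM animal (-0.76 to -0.57, adjusted p from 0.0643 to 0.127).

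Nucleotide enzymes went in different directions. Of 11 other genes of nucleotide supply, TM raised 2 and lowered 6 in the wild type and raised 2 and lowered 4 in Atf6a-/- animals (18.2%, 54.5%, 18.2% and 36.4%, read against the same shares of all genes). Tk1, the thymidine kinase of S phase, stood at 9.32, 8.80 and 9.33 in wild-type vehicle animals, 7.74, 8.38 and 8.26 in wild-type TM animals, 9.19, 9.42 and 9.08 in Atf6a-/- vehicle animals and 6.78, 7.13 and 5.83 in Atf6a-/- TM animals. The Atf6a-/- TM arrays lay below every other array, where those of Rrm2 were, apart from 1 wild-type TM array, the highest. Tk1 fell by 2.65 in Atf6a-/- animals (standard error 0.28, adjusted p = 2.4e-05) and was lower there under TM by -1.55 (adjusted p = 0.00799), and the interaction was -1.63 (adjusted p = 0.0825). Cad and Ctps, enzymes of pyrimidine synthesis, rose by 2.98 (adjusted p = 7.3e-06) and 1.85 (adjusted p = 7.2e-04) in wild-type animals, whereas Rrm1, the large subunit of ribonucleotide reductase and the partner of Rrm2, fell by 0.65 (adjusted p = 0.00457). Without wild-type vehicle animal 3 or wild-type TM animal 1 the fall of Rrm1 was under the 1.5-fold limit (-0.55 and -0.53).

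The list of the anaphase promoting complex and SCF ubiquitin ligases, with their partners, held the largest genotype difference of these lists. Of its 22 genes TM raised 4 and lowered 0 in the wild type and raised 3 and lowered 2 in Atf6a-/- animals (18.2%, 0%, 13.6% and 9.09%, against 8.92%, 6.9%, 13.1% and 8.21% of all genes). Ube2c, the conjugating enzyme of the anaphase promoting complex, stood at 6.15, 5.19 and 6.14 in wild-type vehicle and 9.50, 10.51 and 10.07 in wild-type TM animals. The Atf6a-/- animals stood at 5.21, 5.45 and 4.93 with vehicle and at 5.92, 5.46 and 5.75 with TM. The wild-type TM arrays were separated from all others by more than 3 on the log2 scale, and the interaction was -3.69 (standard error 0.40, adjusted p = 7.7e-04). The interaction was called in the same direction for Ccne2 and in the opposite one for Mcm7. That of Top2a had the same sign as that of Ube2c and was not called. Cks1b, which binds cyclin-dependent kinases and the SCF ligase, rose in both genotypes, by 2.22 (adjusted p = 6.5e-05) and 3.10 (adjusted p = 3.6e-06).

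Of 34 genes of the spindle and of chromosome segregation, TM raised 3 and lowered 5 in the wild type and raised 1 and lowered 2 in Atf6a-/- animals (8.82%, 14.7%, 2.94% and 5.88%, against 8.92%, 6.9%, 13.1% and 8.21% of all genes). Espl1, the separase, stood at 4.01, 3.90 and 4.10 (vehicle) and 4.92, 5.18 and 4.67 (TM) in wild-type animals and at 4.20, 3.87 and 3.86 and 3.87, 4.01 and 3.89 in Atf6a-/- animals. The wild-type TM arrays were the highest, and wild-type TM animal 2 was the 1 array in which Espl1 exceeded the array median. Espl1 was lower in Atf6a-/- animals under TM by -0.999 (adjusted p = 0.00114), as was the spindle protein gene Nusap1 by -1.19 (adjusted p = 0.00551). Spc25, of the kinetochore, fell by 1.96 (adjusted p = 9.1e-04) and 1.65 (adjusted p = 0.00203), and it too was high in wild-type vehicle animals 1 and 3 (7.84 and 8.18 against 7.11). Its difference in Atf6a-/- animals changed sign, without a call, when probesets that may read several transcripts were left out. Smc4, of condensin, rose by 0.97 in Atf6a-/- animals (adjusted p = 1.5e-04) and differed by 0.05 in wild-type animals.

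**Figure D5:**
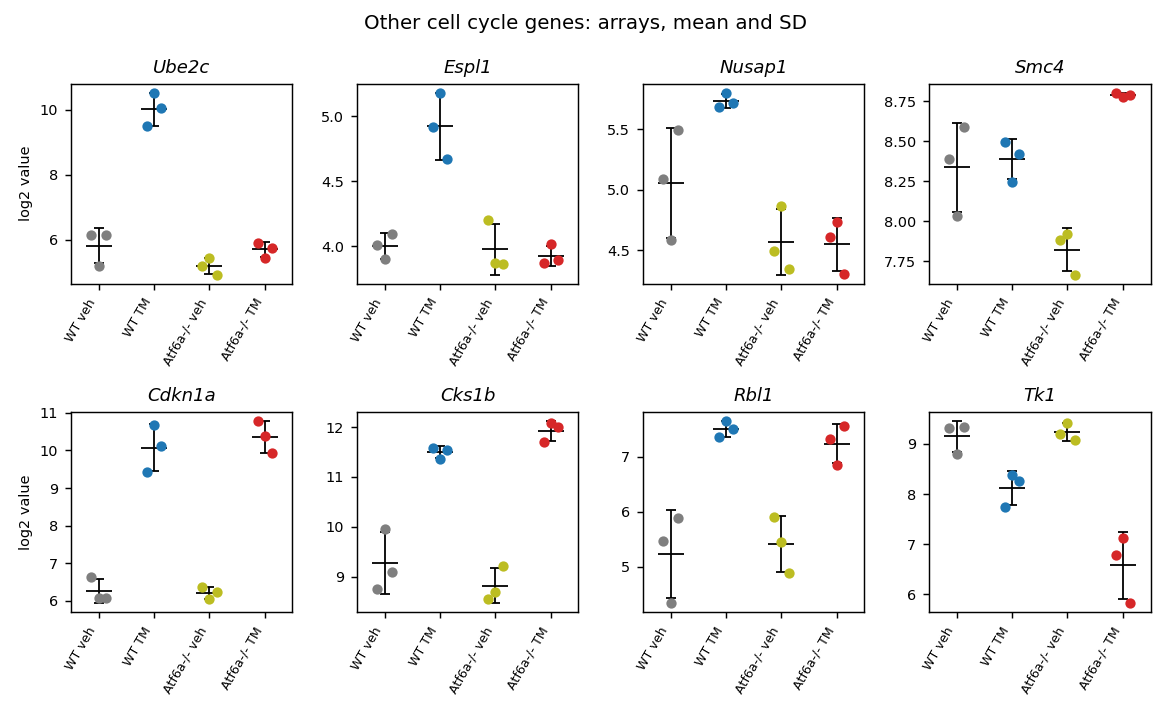
Log2 value of 8 other cell cycle genes in every array of the 4 groups (points), with the group mean and SD (black bars, n = 3); each panel has its own y axis. Ube2c and Espl1 are high in wild-type TM arrays only, Cdkn1a and Cks1b in the TM arrays of both genotypes, and Tk1 is lowest in Atf6a-/- TM arrays (5.83 to 7.13).

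Among 12 checkpoint kinase genes TM raised 2 and lowered 2 in the wild type and raised 2 and lowered 1 in Atf6a-/- animals (16.7%, 16.7%, 16.7% and 8.33%, against 8.92%, 6.9%, 13.1% and 8.21% of all genes). Wee1, which restrains Cdk1, fell by 1.54 (adjusted p = 2.5e-04) and 1.45 (adjusted p = 2.5e-04), and Atrip, the partner of Atr, rose by 0.84 (adjusted p = 4.0e-04) and 1.35 (adjusted p = 7.3e-06). Of 12 mitogens and early growth signals, 1 was higher and 3 were lower in the wild type and 2 and 4 in Atf6a-/- animals (8.33%, 25%, 16.7% and 33.3%, against the same shares of all genes). Met, the receptor of hepatocyte growth factor, fell by 1.76 (adjusted p = 3.9e-06) and 1.51 (adjusted p = 8.9e-06). The contrasts share arrays (each array enters 3 of the 5), so calls in different contrasts are not independent of each other.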

How the data were processed

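Livers of 12 mice were hybridised to Affymetrix Mouse Genome arrays, 1 animal per array. Per the labels and the submitters' processing notes the authors deposited log2 intensities made by robust multi-array averaging (RMA), with affy and limma named and versions not given in the sources used here. From these, 45037 probesets without the 64 control probesets were fitted with limma 3.58.1 in R 4.3.3, with 1 mean for each of the 4 groups over all 12 arrays, no covariate and empirical Bayes moderation, and p-values were adjusted by Benjamini-Hochberg over all 45037. Of them 34945 name 1 gene, 932 several and 9160 none. Each gene was read from its brightest single-gene probeset, over 18193 genes. A call needed an adjusted p under 0.05 and over 1.5-fold. With 3 animals a group an exact permutation test cannot go below p = 0.1, and the number of arrays limits the precision. All called members were named, and of each further list at most the 4 genes called with the largest absolute moderated statistic per contrast. The 33 members, the lists and the tests were chosen with earlier results of these data known. The labels do not state that replicates of a group came from separate litters. Whether animal numbers pair the groups is not stated by the labels, and no pairing was used in the main fit. Of 18 same-number pairs 6 correlated over 0.1 in their deviations, which cannot show that the animals were unpaired. Replicate arrays correlated at 0.9866 to 0.9958. Scaling, probeset choice, thresholds, batch proxies and left-out arrays were varied. Promoter windows came from a RefSeq table for GRCm38.p6, which held 26 of the 33 members.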

Additional observations from a re-analysis of the deposited data

Results flagged for a closer look

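Among the 32 genes and the 149 of the further lists, 5 named genes were called by the interaction term of limma. Over all genes 1.06% were called higher and 0.748% lower by that term. The 5 are given as single genes, and their number is no result about the lists. Ccne2 (-1.32, standard error 0.21, adjusted p = 0.00873) and Ube2c (-3.69, standard error 0.40, adjusted p = 7.7e-04) rose more in wild-type than in Atf6a-/- animals, and so did Espl1 (-0.97, standard error 0.19, adjusted p = 0.0287), which did not rise in Atf6a-/- animals. Mcm7 (1.17, standard error 0.22, adjusted p = 0.0259) and Smc4 (0.92, standard error 0.19, adjusted p = 0.0359) rose more in Atf6a-/- animals. Ube2c, Espl1 and Smc4 belong to the further lists and not to the 33 genes. The calls of Mcm7, Espl1 and Smc4 lie near the threshold. Mcm7 lost its call without any of 7 arrays in turn (adjusted p from 0.0545 to 0.0779) and with the replicate block (adjusted p = 0.0505). Espl1 lost its call without any of 9 arrays, the exceptions being wild-type TM animal 3, Atf6a-/- vehicle animal 3 and Atf6a-/- TM animal 2 (-1.03 to -0.85, adjusted p from 0.0518 to 0.0766). Smc4 lost its call without any of 10 arrays, the exceptions being wild-type vehicle animal 2 and wild-type TM animal 1 (0.79 to 0.96, adjusted p from 0.0542 to 0.109).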

How the results depend on the processing

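Of 600 values of the 22 calls of the 32 genes under 28 alternatives, 498 kept their call, 102 lost it and 0 changed direction. The 1 reversal among named genes was Spc25 in Atf6a-/- animals (0.0924, adjusted p = 0.508) when probesets that may read several transcripts were left out, which also removes every Mcm7 probeset. Counts of genes called with TM in wild-type animals became 1 higher and 0 lower by the methods' t-test after Benjamini-Hochberg adjustment, 2 higher without shared probesets, 2 higher and 1 lower at 2-fold, 5 lower with Eif2s3y minus Xist as covariate, 6 lower without the arrays with Y-linked signal and 0 lower without wild-type vehicle animals 1 and 3. In Atf6a-/- animals 5 were lower centred on Btf3 and Ppia, 6 with no fold limit, 0 by the t-test after adjustment, 1 by the mean of a gene's probesets, and 3 higher and 1 lower at 2-fold. Between the genotypes under TM 1 was higher with quantile or cyclic loess normalization, with the replicate block or without shared probesets and 0 by the adjusted t-test or at 2-fold, while 1 was lower with bright probesets only or the mean of probesets and 0 by the adjusted t-test. With vehicle 1 was lower by the unadjusted t-test. For the interaction 0 were higher with the replicate block, 2 with the covariate, 2 without the arrays with Y-linked signal and 0 without wild-type vehicle animals 1 and 3, and 0 were lower with bright probesets only or without those animals. The t-test and fits on only the arrays of a contrast give no interaction. Leaving out 1 array at a time gave 2 to 5 higher and 2 to 6 lower in wild-type animals, 4 to 6 and 2 to 4 in Atf6a-/- animals, 1 to 2 and 1 to 3 between the genotypes under TM, 0 to 0 and 0 to 2 with vehicle, and 0 to 2 and 1 to 2 for the interaction. Except where an alternative tests fewer probesets or arrays, the cause was not tested. The 2-fold limit and leaving out wild-type vehicle animals 1 and 3 together were chosen after seeing the data, and the latter leaves 1 wild-type vehicle array, assumed to vary like the other groups, so its lost calls say nothing of stability.

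Animal numbers are shared between groups. By their deviations 5 of 12 arrays correlated best with their own number, and same-number correlations ran from -0.476 to 0.394. These correlations do not settle whether the numbers pair animals. With the replicate block adjusted p became 0.0631 for Ccne1 in wild-type animals, 0.0626 for Ccnd3 and 0.0579 for Cdt1 between the genotypes under TM and 0.0505 for the interaction of Mcm7. List medians of the members moved in 2 of 137 values and counts over the further lists in 224 of 2192. Genes below the array median may have changes that these arrays do not show.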
